A study of Mus musculus with 2 samples.

Results

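The genes described here write, keep, remove and read methyl groups on cytosine in DNA. They are the 10 mouse genes Dnmt1, Uhrf1, Dnmt3a, Dnmt3b, Tet1, Tet2, Tet3, Tdg, Mbd2 and Mbd3, chosen by name, and each had 1 row among the 25791 gene rows of the deposited table. Of these 10 genes, 6 reached an FPKM of at least 1 in at least 1 group, the level used here to count a row as expressed. FPKM gives the sequenced fragments of a gene scaled to the length of its transcript and to the size of the mapped library.

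RNA was measured in Extensively Self-Renewing Erythroblasts (ESREs), cultured mouse red cell precursors that divide for long periods without maturing, of C57/bl6 background. In the maturation group the cells had matured for 1 day, and in the expansion group they were proliferating. The series title speaks of β-Yac transgenic mice, but the labels do not say whether the cells of these libraries carried that transgene. The design text describes biological duplicates, while the table holds 1 value per gene and group, so no spread between replicates exists, no test was possible, and the differences below are descriptions of 2 deposited values.

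DNA methylation sits mainly on cytosines followed by guanine (CpG). DNMT3A and DNMT3B place new marks, whereas UHRF1 recognises hemimethylated DNA behind the replication fork and brings in DNMT1, which copies the mark to the new strand. TET enzymes oxidise the mark with 2-oxoglutarate as co-substrate, TDG cuts out the most oxidised forms for base excision repair, and the methyl-CpG-binding family members MBD2 and MBD3 sit in alternative forms of the NuRD repressor complex. Mouse erythroblasts are known to lose DNA methylation across the genome as they mature, and TET2 and DNMT3A are known in human blood as genes often mutated in myeloid disease.

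Several facts of the whole table bear on these values. The median log2 ratio of maturation over expansion, computed as log2(FPKM + 1) in maturation minus the same in expansion, was -0.25 over the 9263 expressed rows. A ratio near 0 therefore lay above the middle of the table. Small RNA rows, picked by name, held 25.5% of the summed FPKM in maturation and 17.6% in expansion. With both groups scaled to the same summed FPKM without these rows, the median log2 ratio was -0.15. All 9 erythroid marker genes checked were expressed in at least 1 group and had a ratio above 0, and the erythroid regulator Gata1 was at 37.4 FPKM in maturation and 18.8 FPKM in expansion. Markers of other blood cells differed between the groups too. The summed FPKM of 6 mast cell and basophil markers was 2.12 in maturation and 20.8 in expansion. Mcpt8 was listed at 0 in both groups and Cpa3 at 0 in maturation. Cma1 went against the sum, at 0.288 FPKM in maturation and 0.192 FPKM in expansion. The summed FPKM of 6 megakaryocyte and platelet markers was 4.13 in maturation and 22.8 in expansion. Pf4 was listed at 0 in maturation and at 0.0333 in expansion. Gp9 of that list went against the sum, at 1.84 FPKM in maturation and 0.756 FPKM in expansion. In the summed FPKM of 5 macrophage markers the values were 0.602 in maturation and 1.34 in expansion, with Mrc1 listed at 0 in expansion. The summed FPKM of the granulocyte, lymphocyte, endothelial and stromal, and hepatocyte lists stayed at or below 0.101 in maturation and 0.0812 in expansion. The part of these other cells in the results below was not tested, and fewer cells of a type and less RNA per cell cannot be told apart in bulk RNA.

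The start-site sequences of the maintenance pair and of Tet2 are shown first, because Uhrf1 was the member with the largest log2 ratio, Dnmt1 is its partner enzyme, and Tet2 had the lowest ratio of its 2 FPKM values. RefSeq windows of 300 bases (250 before and 50 after a start site, build GRCm38.p6) were available for 9 of the 10 members, 14 windows in all. The stretch before the second listed start site of Uhrf1 lies at chr17:56304063-56304312 on the plus strand, with an E2F motif and CCAAT boxes in capitals. The stretch before the second listed start of Dnmt1 lies at chr9:20952980-20953229 on the minus strand, with its CpG dinucleotides in capitals. A short piece of Dnmt1 at chr9:20952835-20952863 lies inside annotated UTR and exon bases. It is shown for an E2F motif and overlapping CCAAT boxes on both strands, in capitals. The name first-exon piece printed with it below is only a label, since its exon number was not looked up. The stretch before the Tet2 start lies at chr3:133544391-133544640 on the minus strand, with CpG in capitals.
Uhrf1, second start: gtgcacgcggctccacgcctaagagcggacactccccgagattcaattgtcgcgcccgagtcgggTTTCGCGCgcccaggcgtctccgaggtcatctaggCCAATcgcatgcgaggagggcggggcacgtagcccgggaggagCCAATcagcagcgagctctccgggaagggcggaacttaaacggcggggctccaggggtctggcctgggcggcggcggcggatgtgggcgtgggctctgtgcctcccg
Dnmt1, second start: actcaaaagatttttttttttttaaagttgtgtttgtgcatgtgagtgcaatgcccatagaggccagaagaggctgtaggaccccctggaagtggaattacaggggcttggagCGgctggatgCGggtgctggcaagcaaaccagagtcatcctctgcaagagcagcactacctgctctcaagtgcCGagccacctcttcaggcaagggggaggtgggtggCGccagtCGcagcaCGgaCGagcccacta
Dnmt1, first-exon piece: cctcCCAATTGGtttccgcgcGCGCGAAA
Tet2: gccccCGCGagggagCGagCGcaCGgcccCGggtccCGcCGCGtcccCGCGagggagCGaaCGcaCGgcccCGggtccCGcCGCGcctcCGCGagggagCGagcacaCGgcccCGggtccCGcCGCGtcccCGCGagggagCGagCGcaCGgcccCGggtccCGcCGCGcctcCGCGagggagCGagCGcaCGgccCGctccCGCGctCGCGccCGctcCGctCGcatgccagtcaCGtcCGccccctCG

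The maintenance pair had unlike ratios. Uhrf1 (chromosome 17, mm9 56442760 to 56462909) was at 21.7 FPKM in maturation and 9.08 FPKM in expansion, 2.39-fold higher, with a log2 ratio of 1.17. Dnmt1 (chromosome 9, mm9 20711653 to 20757317) was at 11.4 FPKM in maturation and 12.02 FPKM in expansion, a fold of 0.948 and a log2 ratio of -0.07, which became 0.18 once ratios were centred on the median of all expressed rows. There was thus 1.90 times as much Uhrf1 as Dnmt1 by FPKM in maturation and 0.756 times as much in expansion, a within-library ratio that no scaling of the libraries can change. Uhrf1 stood above 97.5% of expressed rows by log2 ratio and Dnmt1 above 68.6%. Of the 6 expressed members, 1 was at least 2-fold higher by log2 ratio (a ratio of at least 1), against 3.13% of all expressed rows. None was at least 2-fold lower, against 6.7% of all expressed rows. No test of these counts was made.

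The de novo enzymes were both below 1 FPKM in both groups, far under Dnmt1. Dnmt3a was at 0.374 FPKM in maturation and 0.654 FPKM in expansion, a fold of 0.572. Dnmt3b was at 0.247 FPKM in maturation and 0.180 FPKM in expansion, a fold of 1.37. Of the summed FPKM of the 3 DNA methyltransferase genes, Dnmt1 held 94.8% in maturation and 93.5% in expansion, Dnmt3a 3.11% in maturation and 5.09% in expansion, and Dnmt3b 2.05% in maturation and 1.40% in expansion. Most of the methyltransferase RNA in both groups was thus from the maintenance enzyme. The Dnmt3a row shared its locus with 2 other rows, Gm10485 and LOC100503871, both at or below 0.0412 FPKM in either group.

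**Figure D1:**
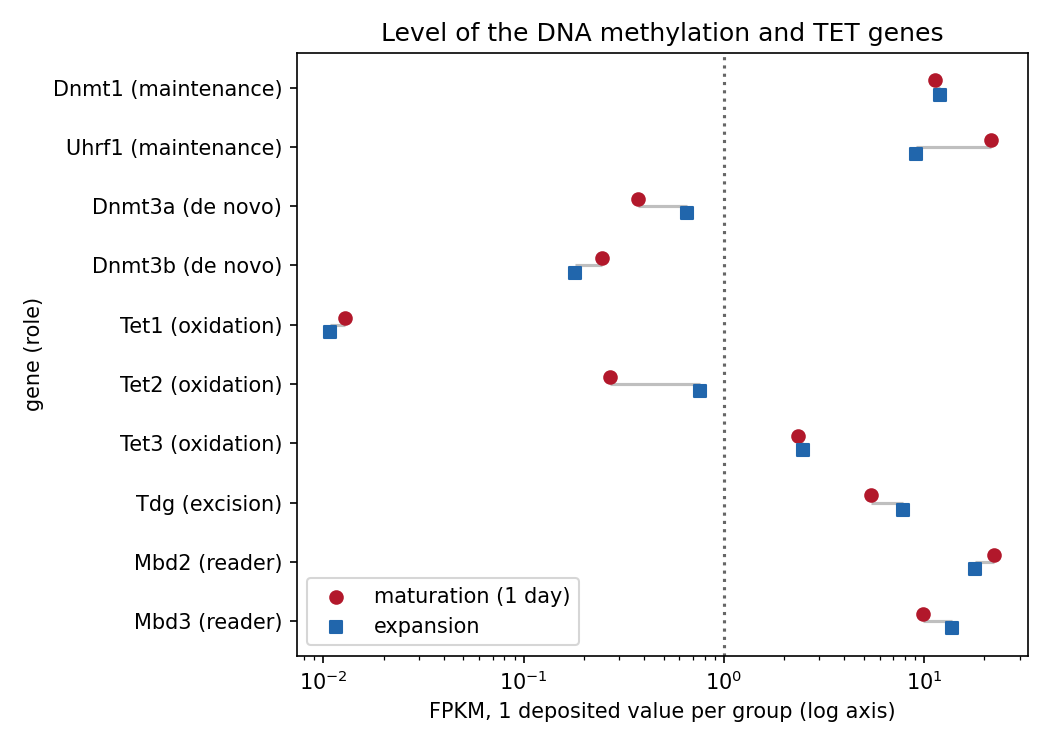
FPKM (log axis) of each of the 10 genes, with its role in brackets, in maturation (circles) and expansion (squares), 1 deposited value per group, so there are no error bars; the dotted line marks 1 FPKM. Uhrf1 has the widest gap among the genes right of the line (21.7 in maturation and 9.08 in expansion), and Dnmt3a, Dnmt3b, Tet1 and Tet2 lie left of the line in both groups.

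Tet3 was the main TET gene by FPKM in both groups. It was at 2.34 FPKM in maturation and 2.48 FPKM in expansion, a fold of 0.941. Tet2, the family member best known in blood cells, was at 0.271 FPKM in maturation and 0.761 FPKM in expansion, a fold of 0.356. With the pseudocount of 1 its log2 ratio was only -0.47, because both values were below 1 FPKM. Tet1 was at 0.0128 FPKM in maturation and 0.0108 FPKM in expansion, the lowest level of the 10 genes in each group. The summed FPKM of the TET family was 2.62 in maturation and 3.26 in expansion. Tet3 held 89.2% of it in maturation and 76.3% in expansion, and Tet2 10.4% in maturation and 23.4% in expansion. Tet3 stood at 8.61 times Tet2 in maturation and 3.26 times in expansion. The 3 methyltransferase genes together were at 4.58 times the TET family in maturation and 3.95 times in expansion.

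Tdg, the glycosylase downstream of the TET enzymes, was at 5.43 FPKM in maturation and 7.86 FPKM in expansion, a fold of 0.690 and a log2 ratio of -0.46. It thus stood above the TET sum in both groups, at 2.07 times that sum in maturation and 2.42 times in expansion. Its locus in the table spanned 60813 bases, against 20986 for the RefSeq gene, and was shared with Glt8d2, at 0.0330 FPKM in maturation and 0.0370 FPKM in expansion.

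The readers had ratios of opposite sign, under each scaling tried, and neither was past 2-fold. Mbd2, which binds methylated CpG, was at 22.4 FPKM in maturation and 17.9 FPKM in expansion, a fold of 1.25 and a log2 ratio of 0.31. Mbd3, whose mammalian protein binds methylated DNA poorly, was at 9.90 FPKM in maturation and 13.7 FPKM in expansion, a fold of 0.722 and a log2 ratio of -0.43. Mbd2 was at 2.26 times Mbd3 in maturation and 1.30 times in expansion. Mbd2 had the highest level of the 10 genes in both groups, above 86.5% of expressed rows in maturation and 83.1% in expansion. The Mbd3 row carried a locus of 32367 bases that it shared with Uqcr, Mex3d and LOC100503758. Uqcr, a respiratory chain gene, was at 72.5 FPKM in maturation and 58.0 FPKM in expansion. The Mbd3 level may depend on how the authors' software divided fragments there, which was not tested.

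By level, the order in maturation was Mbd2, Uhrf1, Dnmt1, Mbd3, Tdg, Tet3, Dnmt3a, Tet2, Dnmt3b and Tet1. In expansion it was Mbd2, Mbd3, Dnmt1, Uhrf1, Tdg, Tet3, Tet2, Dnmt3a, Dnmt3b and Tet1. Uhrf1 thus stood next to Mbd2 in maturation, where Mbd3 stood in expansion, and Dnmt3a and Tet2 changed places. Whether neighbours in either order differ beyond replicate spread could not be judged. Among the 6 expressed members 4 had a log2 ratio below 0, against 74.1% of all expressed rows. The median ratio of these 6 was -0.07, against -0.25 over all expressed rows.

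**Figure D2:**
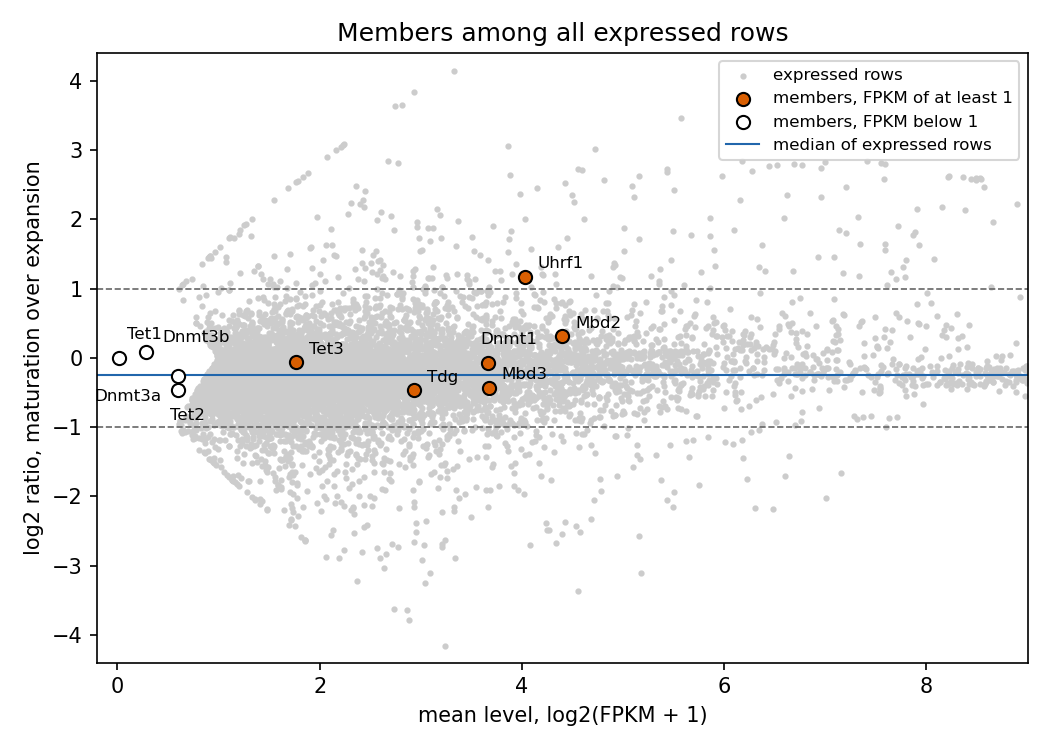
Log2 ratio of maturation over expansion against mean level, log2(FPKM + 1), for the expressed rows (grey) and the 10 genes (filled at 1 FPKM or more in a group, open below), with dashed lines at a 2-fold difference and a solid line at the median ratio of -0.25; 144 expressed rows lie outside the axes. Uhrf1, at 1.17, is the 1 member beyond a dashed line.

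The rows nearest to Uhrf1 over the 2 groups, by Euclidean distance on the log2(FPKM + 1) scale, were Tk1, Zfpm1 and Isca1. Tk1 was at 21.7 FPKM in maturation and 9.19 FPKM in expansion, a distance of 0.016. Zfpm1 was at 21.8 FPKM in maturation and 10.2 FPKM in expansion. The nearest rows to Mbd2 were Ctbp1, at 23.3 FPKM in maturation and 17.9 FPKM in expansion, Gm2710 and 2010107H07Rik. With only 2 values per gene, closeness here says that level and difference were alike, and many rows can be close by this measure.

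Start-site windows differed widely between the members in their CpG number, the feature the encoded proteins act on. The Tet2 window held 57 CpG and the windows of Dnmt3a 46, 47 and 18. The windows of Dnmt1 held 2, 12 and 33 CpG at its 3 listed start sites, and those of Uhrf1 12 and 33. The remaining members held between 17 and 30 CpG, Tet1 with 17 and Dnmt3b with 30. Over 7293 windows of expressed genes the median was 21 CpG. In the Tet2 sequence printed above, shifting the 250 bases by 42 positions matched 77.9% of letters, which reflects a repeated CG-rich unit that can be read in the printed line. The best shift of any other member's window matched at most 49.0%. Which start site was used in these cells is not known from the table, which gives 1 value per gene.

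**Figure D3:**
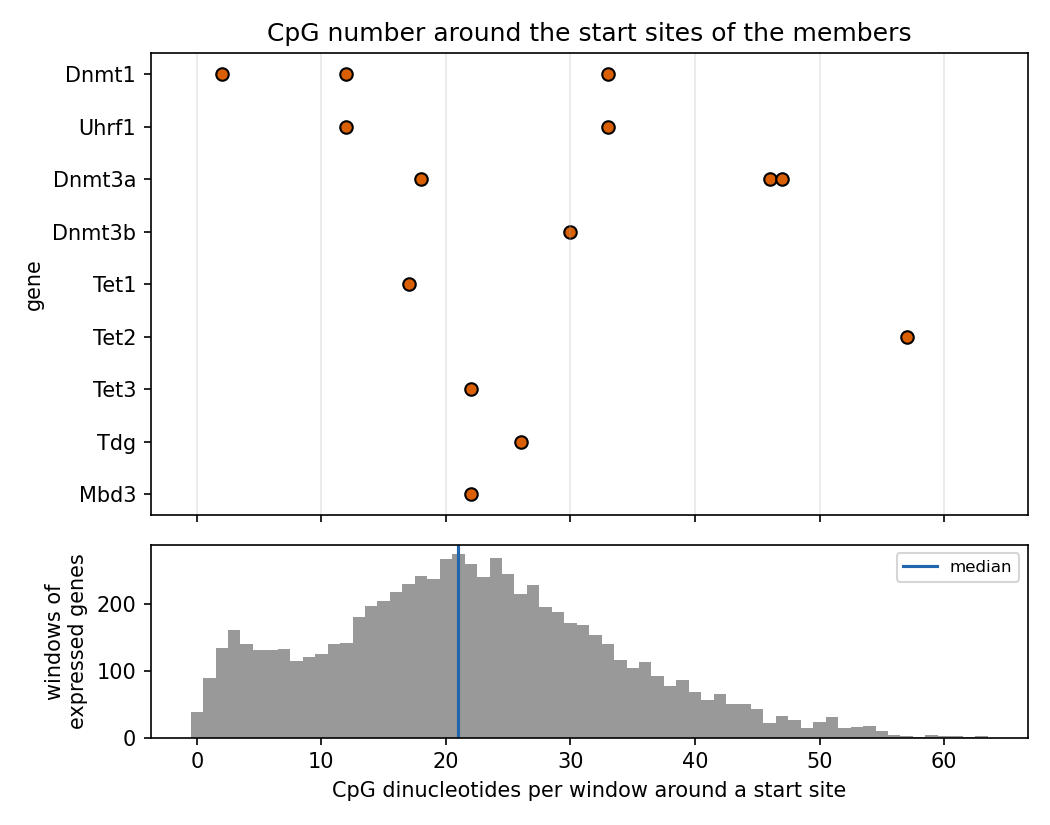
CpG dinucleotides per 300-base window around each listed start site of the 9 members with a RefSeq entry (upper panel, 1 point per start site) and the number of windows of expressed genes with each CpG count (lower panel, line at the median of 21). Tet2 lies far to the right with 57, and the 3 start sites of Dnmt1 spread from 2 to 33.

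Motifs for E2F, the CCAAT box and GATA were searched on both strands of the windows. The E2F motif was any of TTTCCCGC, TTTCGCGC, TTTGCCGC and TTTGGCGC. The CCAAT box was the letters CCAAT, and the GATA motif the letters AGATAA. Of the 9 members with a window, 2 held an E2F motif, and these were Uhrf1 and Dnmt1, against 5.51% of 5758 expressed genes with a window. Both genes have more than 1 window, which gives more places for a match. By window the count was 2 of 14, against 4.59% of 7293 windows of expressed genes. In Uhrf1 the match began 185 bases before the second start (position -185), with CCAAT boxes at -150 and -107. The window of the first Uhrf1 start held 0 E2F motifs and 3 CCAAT boxes. In Dnmt1 the matches lay in the window of the third start, at -219 in the short piece printed above and at position 34 after the start. The window of the first Dnmt1 start held 0 E2F motifs and 5 CCAAT boxes. A CCAAT box was found in 5 of the 9 and in 44.7% of expressed genes, and Mbd3 held 3, all on the opposite strand and so read ATTGG in its own direction. None of the 9 held the GATA motif, which 7.59% of expressed genes held. A match is a run of letters, not a site shown to be bound. Among the DNA replication genes compared below, 8 of 19 genes with a window held the E2F motif. In other lists below it was held by 2 of 14 germline genes, 2 of 18 imprinted genes and 0 of 10 NuRD subunits with a window.

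Partners of the maintenance enzymes were mixed. Of 14 genes in this list 10 were expressed and none was past 2-fold in either direction, with a median log2 ratio of -0.34. Pcna, the sliding clamp that holds DNMT1 at the fork, was at 138 FPKM in maturation and 75.6 FPKM in expansion, a log2 ratio of 0.86. The Pcna row shared its locus with 5730494N06Rik and LOC100503576. Usp7, a deubiquitinase that binds both UHRF1 and DNMT1, was at 11.2 FPKM in maturation and 7.24 FPKM in expansion. Cdca7, which brings the remodeller HELLS to chromatin, was at 6.10 FPKM in maturation and 12.1 FPKM in expansion, a log2 ratio of -0.88. Hells itself was at 4.74 FPKM in maturation, 1.05 times its level in expansion. The methyltransferase cofactor Dnmt3l was at 0.00628 FPKM in maturation and listed at 0 in expansion. Uhrf2, the paralog of Uhrf1, was at 2.58 FPKM in maturation and 2.65 FPKM in expansion, a fold of 0.973 beside the 2.39 of Uhrf1.

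DNA replication genes had ratios above 0, and Uhrf1 lay within their range while Dnmt1 lay below it. This comparison list was chosen with earlier results of these data known, so its counts are descriptions and not independent support. Of its 23 genes, all were expressed, each with a ratio above 0, while 74.1% of all expressed rows had one below 0. At least 2-fold higher by log2 ratio were 8 of them, against 3.13% of all expressed rows, and the other 15 were within 2-fold on that scale. By plain FPKM ratio 9 were at least 2-fold higher, among them Ccne2 at 2.43, against 364 of the 9263 expressed rows. Their median ratio was 0.85. The ratios ran from 0.41 for Chaf1a to 1.88 for Ccne1, which holds the Uhrf1 value of 1.17 and not the Dnmt1 value of -0.07. Rrm2, a subunit of ribonucleotide reductase, was at 89.0 FPKM in maturation and 25.5 FPKM in expansion, and E2f2 was at 11.96 FPKM in maturation and 3.04 FPKM in expansion. Some genes of this list, Pcna, Lig1 and Fen1, also stand in the partner or repair lists.

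The expressed genes that supply or partner the TET enzymes had ratios below 0. Of 9 genes 6 were expressed and all 6 had a ratio below 0, as did 74.1% of all expressed rows. At least 2-fold lower were 2 of them, against 6.7% of all expressed rows, and the other 4 were within 2-fold. The median ratio was -0.47. These 2 were the isocitrate dehydrogenases that make 2-oxoglutarate with NADP. Idh1, the cytosolic enzyme, was at 1.76 FPKM in maturation and 5.09 FPKM in expansion, a fold of 0.346. Idh2, the mitochondrial enzyme, was at 4.89 FPKM in maturation and 12.2 FPKM in expansion, a fold of 0.399. Ogt, the glycosyltransferase that binds TET proteins, was at 4.78 FPKM in maturation and 7.53 FPKM in expansion. The CXXC partners Cxxc4 and Cxxc5 were at or below 0.0360 FPKM in both groups. After all ratios were centred on the median of the expressed rows, the log2 ratio was -0.89 for Idh1 and -0.92 for Idh2, just inside the 2-fold line.

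Base excision repair genes, a list that holds other glycosylases as well as genes acting after a glycosylase, were mixed. Of 17 genes 13 were expressed, 6 with a ratio above 0 and 7 below, with a median of -0.39. None was past 2-fold on the log2(FPKM + 1) scale, which understates the difference of low genes. By plain FPKM ratio 1 was at least 2-fold higher, Neil3 at 2.78, and 3 were at least 2-fold lower, Neil1 at 0.261, Lig3 at 0.449 and Ogg1 at 0.481. With a pseudocount of 0.1 the counts were 1 higher and 2 lower. Apex1, the endonuclease that acts after a glycosylase, was at 11.4 FPKM in maturation and 22.1 FPKM in expansion, a log2 ratio of -0.90. The Apex1 row shared its locus with Tmem55b. Neil3 was at 2.51 FPKM in maturation and 0.902 FPKM in expansion (log2 ratio 0.88), while Neil1, another glycosylase, was at 0.302 FPKM in maturation and 1.16 FPKM in expansion (log2 ratio -0.73). The ligase Lig3 was at 1.04 FPKM in maturation and 2.33 FPKM in expansion. Lig1 and Fen1, which also serve replication, were at 13.4 and 27.1 FPKM in maturation and at 8.88 and 15.2 FPKM in expansion.

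The complexes and readers around Mbd2 and Mbd3 had medians near or below that of all expressed rows. Of 13 NuRD subunits 12 were expressed, 11 of them with a ratio below 0, against 74.1% of all expressed rows. Their median was -0.21, beside the -0.25 of all expressed rows, and 7 of the 12 lay above that -0.25. None was past 2-fold on the log2(FPKM + 1) scale. Chd3, a remodelling subunit, was at 1.12 FPKM in maturation and 2.89 FPKM in expansion, with a log2 ratio of -0.88 but a plain FPKM ratio of 0.387, and with a pseudocount of 0.1 it was the 1 subunit at least 2-fold lower. Its paralog Chd4 was at 6.93 FPKM in maturation and 9.43 FPKM in expansion. Of 7 other methyl-CpG readers 3 were expressed, none past 2-fold, with a median of -0.22, and Zbtb33, the zinc finger protein Kaiso, was at 1.12 FPKM in maturation and 2.20 FPKM in expansion. Of 5 proteins that bind unmethylated CpG through a CXXC domain 4 were expressed, none past 2-fold, with a median of -0.40, among them Kdm2a at 1.85 FPKM in maturation and 2.85 FPKM in expansion.

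**Figure D4:**
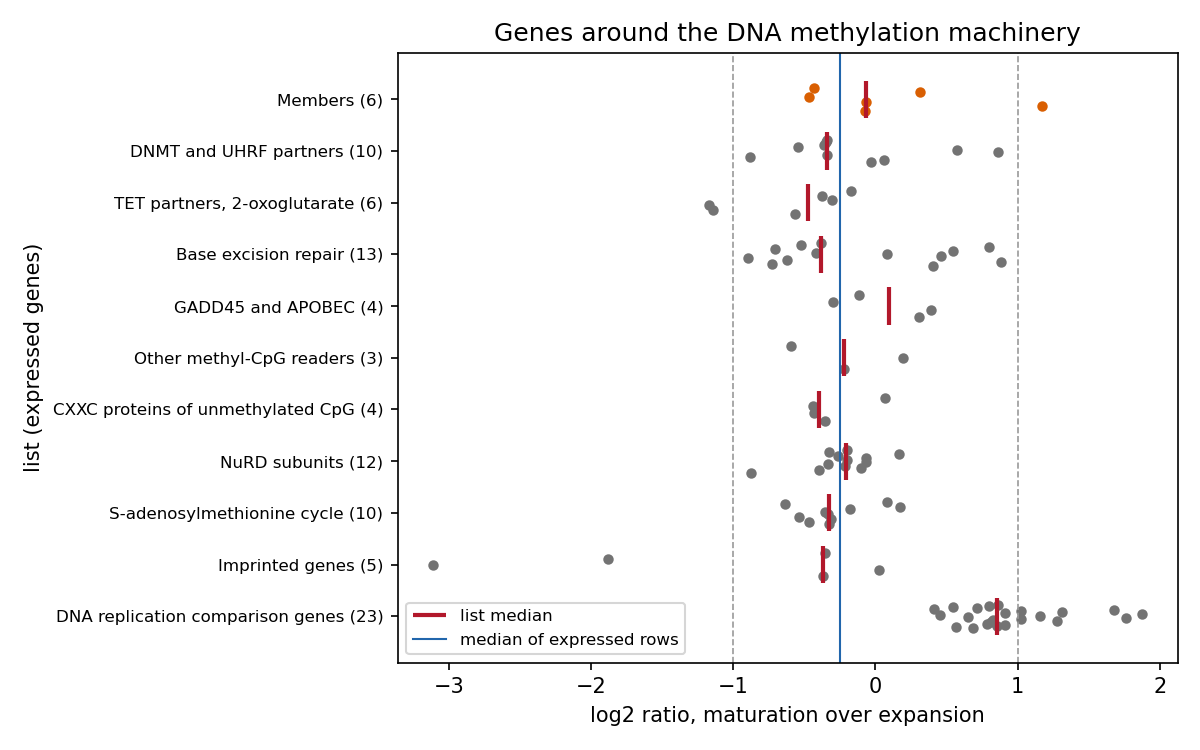
Log2 ratio of maturation over expansion for the expressed genes of each list (1 point per gene, number in brackets, thick bar at the list median), with dashed lines at a 2-fold difference and a solid line at the median of all expressed rows, -0.25. The DNA replication genes lie to the right with a median of 0.85, and the TET partner list has the lowest median, -0.47.

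The methyl donor cycle lay near the middle of the table. Of 13 genes 10 were expressed, 8 with a ratio below 0, against 74.1% of all expressed rows, none past 2-fold, with a median of -0.33 beside the -0.25 of all expressed rows. Mat2a, which makes S-adenosylmethionine in most tissues, was at 33.0 FPKM in maturation and 45.9 FPKM in expansion, and Ahcy, which clears the by-product, was at 13.0 FPKM in maturation and 19.3 FPKM in expansion. Shmt1 was at 2.70 FPKM in maturation and 4.75 FPKM in expansion.

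None of 14 germline genes known in mouse to be kept silent by DNA methylation was expressed in either group. Of all 25791 rows, 16528 were not expressed either, so the absence of these genes is not particular to them. Their highest value was 0.235 FPKM in maturation and 0.225 FPKM in expansion, both for Slc25a31, and their summed FPKM was 0.351 in maturation and 0.354 in expansion. Dazl was at 0.0105 FPKM in maturation and 0.00163 FPKM in expansion. Of 22 imprinted genes 5 were expressed, of which 2 were at least 2-fold lower, against 6.7% of all expressed rows, and none at least 2-fold higher, against 3.13%. Their median ratio was -0.37. Phlda2 was at 0.771 FPKM in maturation and 14.3 FPKM in expansion, and Grb10, an adaptor of growth factor receptors, at 1.08 FPKM in maturation and 6.68 FPKM in expansion. The imprinted genes Igf2r and Snrpn were at 1.44 and 2.65 FPKM in maturation and at 2.15 and 2.58 FPKM in expansion. DNA methylation itself was not measured.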

How the data were processed

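The authors deposited 1 FPKM value per gene row for the maturation group and 1 for the expansion group, per the file headers. The submitters' processing notes name Cuffdiff 2.0.2 and the mouse build mm9. No source used here states the aligner, the annotation, the filters or any pooling of duplicates, and the depth is unknown. RNA was extracted with a Qiagen kit and libraries made with a Nextflex kit, per the labels' protocols.

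Rows were matched by symbol, and all 139 genes of the 11 further lists had a row. Some genes of these lists are not reported here. Expressed rows had 1 FPKM or more in either group. Log2 ratios used a pseudocount of 1 and understate differences of weakly expressed genes, and folds are plain ratios of FPKM. Start positions in the table were counted from 0 (under that reading 175 of 341 microRNA rows match the RefSeq hairpin length, and none does under a count from 1) and are given counted from 1. Counting was tested on simulated data. Members, lists and markers were chosen with earlier results of these data known. Every member is named, and of each list up to 4 genes with the largest ratios, with a few others chosen after their values were seen. Alternatives were pseudocounts of 0.1 and 5, other scalings, other filters and a 1.5-fold threshold. Python 3.11.15, numpy 2.4.6 and pandas 2.3.3 were used. Promoter windows are from RefSeq (GRCm38.p6), and no coordinate was converted between builds.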

Additional observations from a re-analysis of the deposited data

How the results depend on the processing

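Uhrf1 was the 1 member past 2-fold with each alternative except a pseudocount of 5, where its log2 ratio was 0.92 and 0 members were past 2-fold. With a pseudocount of 0.1 the Tet2 ratio was -1.21, though Tet2 is not expressed at 1 FPKM. Dnmt1 ranged from -0.09 to 0.18 and Tet3 from -0.08 to 0.18 over the alternatives, so the sign of either depends on the scaling. Both were above 0 once centred. Scaled to the same summed FPKM without small RNA rows, Dnmt1 was at 0.04 and Tet3 at 0.03. No other member crossed 2-fold. Over all expressed rows the count at least 2-fold lower was 1303 with a pseudocount of 0.1, 148 with 5, 363 after centring, 349 with a minimum FPKM of 5 and 1886 at 1.5-fold, against 621 as reported. The count higher was 166 with a pseudocount of 5 and 584 at 1.5-fold, against 290. Of 87 expressed list genes 8 were at least 2-fold higher and 4 lower. The count higher was 4 with a pseudocount of 5, 17 after centring and 20 at 1.5-fold, and the count lower was 7 with a pseudocount of 0.1, 1 with 5, 2 after centring and 12 at 1.5-fold. The cause of these moves was not tested. No paired analysis was possible because the table holds 1 value per group, and for that reason no replicate could be left out.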

Other observations

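Apobec3, an antiviral cytosine deaminase gene, was at 12.3 FPKM in maturation and 13.4 FPKM in expansion, above the whole TET family sum in both groups, in a locus shared with D730005E14Rik. Gadd45a, a stress-induced gene, was at 11.3 FPKM in maturation and 8.93 FPKM in expansion. Of 6 GADD45 and APOBEC genes 4 were expressed, 2 with a log2 ratio above 0 and none past 2-fold, and the median of 0.10 lay above the -0.25 of all expressed rows. Mat1a, known as the liver form of the S-adenosylmethionine synthase, was at 1.01 FPKM in maturation and 1.52 FPKM in expansion, while the 4 hepatocyte markers summed to 0.0382 FPKM in maturation and 0.0374 FPKM in expansion.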
